A study of Mus musculus with 7 samples.

Results

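The genes described here encode proteins of the photoreceptor ribbon synapse and 2 synaptic scaffolds: Bsn, Pclo, Rims2, Ctbp2, Cacna1f, Cabp4, Erc2, Dlg4, Akap5 and Cacna2d4. They were chosen by symbol, with earlier results of the same comparison known, from a table of 12756 genes. All 10 are in that table, and all 10 passed the filter on low values that 10899 genes passed. The libraries hold RNA from a pull-down of ribosomes from retinas of adult C57BL/6 mice. Every mouse carried Cdh5-CreERT2, an inducible Cre under the promoter of the endothelial cadherin gene, and the RiboTag allele Rpl22 tm1.1Psam, which puts an HA tag on a ribosomal protein where Cre has acted. The treatments were control IgG, with 3 libraries, and anti-Dll4, an antibody to a Notch ligand of endothelial cells, with 4. Neither the dose and duration nor the number of animals behind a library was found in the labels, and the errors measure the spread between these libraries, which may be technical. Control libraries are called 1, 3 and 4 after the table's columns. Control IgG 1 matched no sample title by number and was used as a control library without a number of its own.

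Rods and cones release glutamate all the time in the dark, and they do so at a ribbon, a plate-like structure that holds vesicles close to the release site. The ribbon is built from RIBEYE, is anchored by large cytomatrix proteins, and sits above calcium channels that open at the voltages over which photoreceptors work. Mutations in the channel genes impair transmission from photoreceptors to bipolar cells. Several of these genes, among them Bsn, Pclo, Rims2, Erc2 and Dlg4, are also used at ordinary synapses, so their RNA in a whole retina is not that of photoreceptors alone.

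The pulled-down RNA held photoreceptor RNA in every library. All 18 rod markers on a list had reads in each library, and their summed level was 31768 to 32650.2 CPM (read counts scaled to the same library total) in control libraries, against 15226 to 27429 CPM after anti-Dll4. The 18 endothelial markers, of the cells the tag was meant for, summed to 1926 to 2871 CPM in controls and to 4221 to 5334 CPM after anti-Dll4, below the rod sum in every library; Tek, Emcn and Sox17 were at 0 in some libraries. Cone markers summed to 752 to 950.1 CPM and 335 to 903 CPM in that order, with Cngb3 at 0 in 5 libraries. Bipolar markers summed to 1570.3 to 1985 CPM and 1042 to 1944 CPM, and Vsx1 was at 0 in 3 libraries. Amacrine markers, of cells with ordinary synapses, summed to 359.8 to 693 CPM and 263 to 463 CPM. Libraries held 1356192 to 1771086 reads, and 3 reads equal 1.69 to 2.21 CPM. How much of the photoreceptor RNA came from tagged ribosomes, and how much was carried over without the tag, was not tested. The same holds for the RNA of the genes described here. In such mixed RNA, fewer cells of a type, less RNA per cell and a different carried-over share cannot be told apart.

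None of the 10 genes passed the test over all genes (limma, Benjamini-Hochberg adjusted p under 0.05), beside 0.119% of all genes tested. At an unadjusted p under 0.05 there was 1 of 10, Rims2, beside 7.09% of all genes tested. Voom on whole reads called 1, Rims2, beside 0.367% of all genes. Because the genes were chosen with this comparison known, their differences are given as a description. The log2 change (anti-Dll4 minus control mean of log2(CPM + 1)) was below 0 for 8 of 10, beside 54.5% of all genes. With libraries scaled to the same summed rod marker level it was below 0 for 3 of 10, and the median of all genes tested was then 0.39. Without that scaling, the median change was -0.37, beside -0.14 for all genes tested. The values were not alike. Rims2, Pclo and Bsn had the 3 lowest values, Ctbp2, Cabp4, Erc2, Dlg4 and Akap5 lay between -0.58 and -0.27, and the channel genes Cacna1f and Cacna2d4 were above 0.

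**Figure D1:**
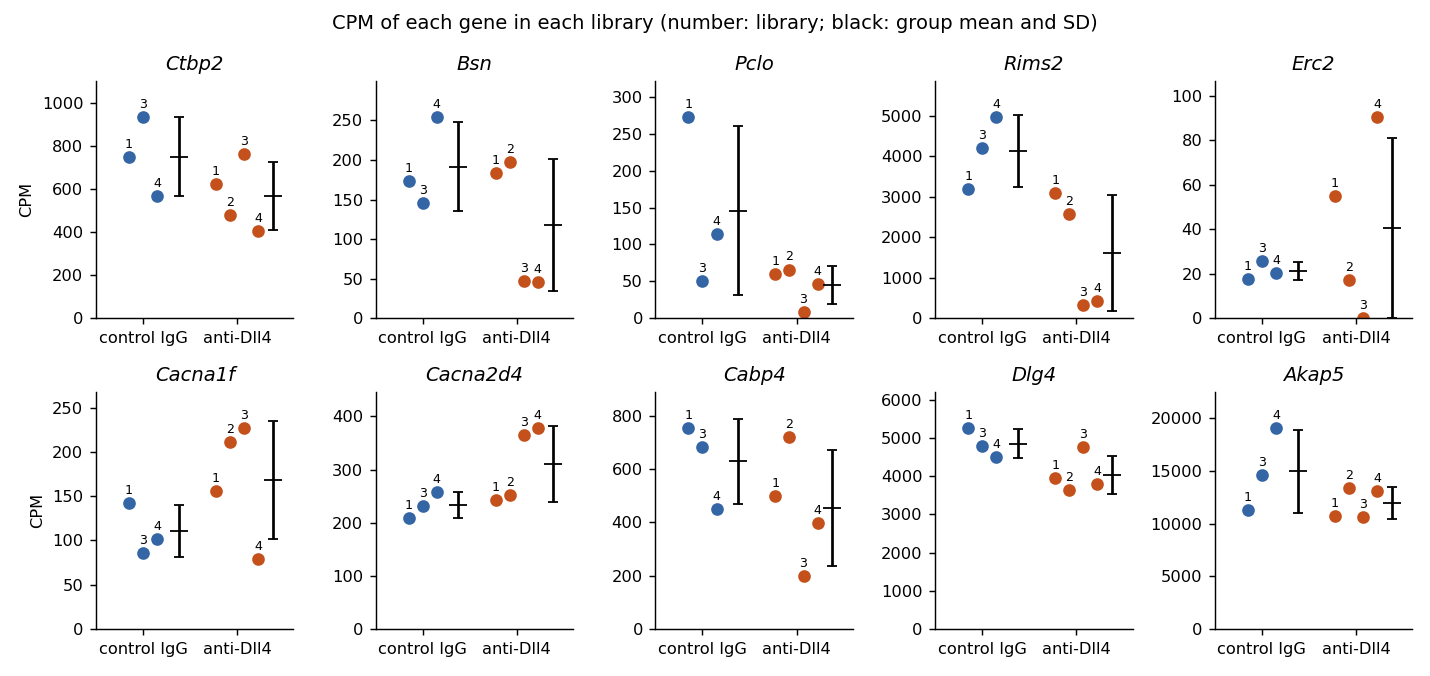
CPM of the 10 genes (vertical axis, from 0, with its own scale in each panel) in 3 control IgG (blue) and 4 anti-Dll4 (orange) libraries. Points are libraries with their numbers, and black marks show the group mean and SD. Rims2 and Bsn were lowest in anti-Dll4 3 and 4, and Cacna2d4 was highest there.

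Ctbp2 encodes 2 proteins from separate starts: CtBP2, a transcriptional corepressor found in most cells, and RIBEYE, the main protein of the ribbon. In GENCODE M21 the RIBEYE form (Ctbp2-214, 988 codons) and the CtBP2 form (Ctbp2-201, 445 codons) end in the same last exon, so reads from 3' ends cannot tell them apart. The span of Fgfr2, on the same strand in that annotation, also covers this exon. The RIBEYE form starts inside a RefSeq promoter window that is shown here because it is the start particular to photoreceptors and other ribbon cells. It was searched on both strands for TAATCC, a site of the photoreceptor factor CRX, which reads GGATTA on the opposite strand. Of 32851 RefSeq promoter windows of 300 bases, 7.06% hold this motif, and of the 10 windows of 7 of these genes, 2 do. They are the RIBEYE window (GRCm38.p6, chr7:133015198-133015497, minus strand), where it starts at base 130, and a window of Dlg4 (GRCm38.p6, chr11:70016953-70017252, plus strand), where it starts at base 232. Coding GENCODE transcripts of Dlg4 do not start in that Dlg4 window, but Dlg4-204 starts just before it, at chr11:70016942. No windows were given for Rims2, Cabp4 and Cacna2d4. The capitals mark the motif, and a match is a description of letters, not of binding.
Ctbp2 (RIBEYE start): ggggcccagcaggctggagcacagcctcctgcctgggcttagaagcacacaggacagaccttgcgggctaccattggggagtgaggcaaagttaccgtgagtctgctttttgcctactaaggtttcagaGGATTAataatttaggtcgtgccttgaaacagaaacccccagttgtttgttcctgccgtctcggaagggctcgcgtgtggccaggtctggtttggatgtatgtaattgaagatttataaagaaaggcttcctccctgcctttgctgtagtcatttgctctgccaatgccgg
Dlg4 (window with the motif): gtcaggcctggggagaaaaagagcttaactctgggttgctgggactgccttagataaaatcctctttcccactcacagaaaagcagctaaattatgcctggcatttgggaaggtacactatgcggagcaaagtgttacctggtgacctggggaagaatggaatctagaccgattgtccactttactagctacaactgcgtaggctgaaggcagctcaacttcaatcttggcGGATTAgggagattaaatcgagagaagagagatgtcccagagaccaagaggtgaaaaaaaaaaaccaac

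Ctbp2 RNA stood at 748, 932 and 567 CPM in control IgG 1, 3 and 4, against 623, 479.5, 762 and 405 CPM in anti-Dll4 1 to 4. The groups overlapped, and anti-Dll4 3, with the least rod RNA, was as high as control IgG 1. Its change was -0.41 ± 0.33 (SE, 95% interval -1.11 to 0.28), from 749 ± 183 (SD, n = 3) to 568 ± 158 CPM (SD, n = 4).

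Of the cytomatrix genes, Rims2, Pclo and Bsn held the lowest changes of the 10, and Erc2 did not. Rims2 encodes RIM2, which primes vesicles and ties calcium channels to release sites. It had 3204, 4206 and 4966 CPM in control IgG 1, 3 and 4, against 3087, 2581, 338 and 425 CPM in anti-Dll4 1 to 4. Every anti-Dll4 library lay below every control library, as for 3.75% of all genes tested, and Rims2 was the 1 gene of the 10 of which this held. None of the 10 lay higher in all anti-Dll4 libraries than in all controls, beside 3.84% of all genes. The distance was small for anti-Dll4 1, at 74.8% of the control mean, and anti-Dll4 2, at 62.6%, and large for anti-Dll4 3 and 4, at 8.18% and 10.3%. The change was -1.97 ± 0.53 (SE, 95% interval -3.08 to -0.86), with means of 4125 ± 884 and 1608 ± 1432 CPM (SD, n = 3 and 4). Without anti-Dll4 3 and 4 it was -0.52. By rank of CPM, in which 3' reads are not divided by transcript length, Rims2 was among the first 18 genes in the 3 control libraries and anti-Dll4 1 and 2, and 577th and 382nd in anti-Dll4 3 and 4.

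Bsn encodes bassoon, a giant protein that anchors the ribbon to the membrane. Its levels were 174, 146 and 254 CPM in controls, against 183, 198, 47.0 and 45.7 CPM in anti-Dll4 1 to 4. Anti-Dll4 1 and 2 lay within the control range, and anti-Dll4 3 and 4, the low libraries of Rims2, at 24.6% and 23.9% of the control mean. The change was -0.98 ± 0.65 (SE, 95% interval -2.34 to 0.39). It was -0.65 without anti-Dll4 3, -0.63 without anti-Dll4 4 and 0.03 without both, so its direction rests on them.

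Pclo encodes piccolo, a relative of bassoon that ribbon synapses use mainly as the short form piccolino, which the table does not separate. It varied widely in control already, at 273, 50.9 and 114 CPM. The anti-Dll4 libraries had 60.3, 66.1, 7.93 and 46.9 CPM, the lowest from 14 reads. Only control IgG 3 lay within the anti-Dll4 range, and the change was -1.69 ± 0.92 (SE, 95% interval -3.60 to 0.21). It was -1.02 without anti-Dll4 3, -1.09 without control IgG 1 and -0.88 without anti-Dll4 3 and 4.

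Erc2 encodes CAST, an active zone protein that binds RIM, bassoon and piccolo. It had the lowest group means of the 10, though not the lowest level in anti-Dll4 4, with 17.7, 25.8 and 20.2 CPM in controls, against 54.9, 17.1, 0 and 90.3 CPM in anti-Dll4 1 to 4. The 0 in anti-Dll4 3 allows up to 1.70 CPM by counting error alone. Its anti-Dll4 libraries thus lay on both sides of the controls, and the change of -0.33 ± 1.59 (SE, 95% interval -3.64 to 2.98) has no clear sign: the log2 ratio of the mean CPM was 0.93.

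**Figure D2:**
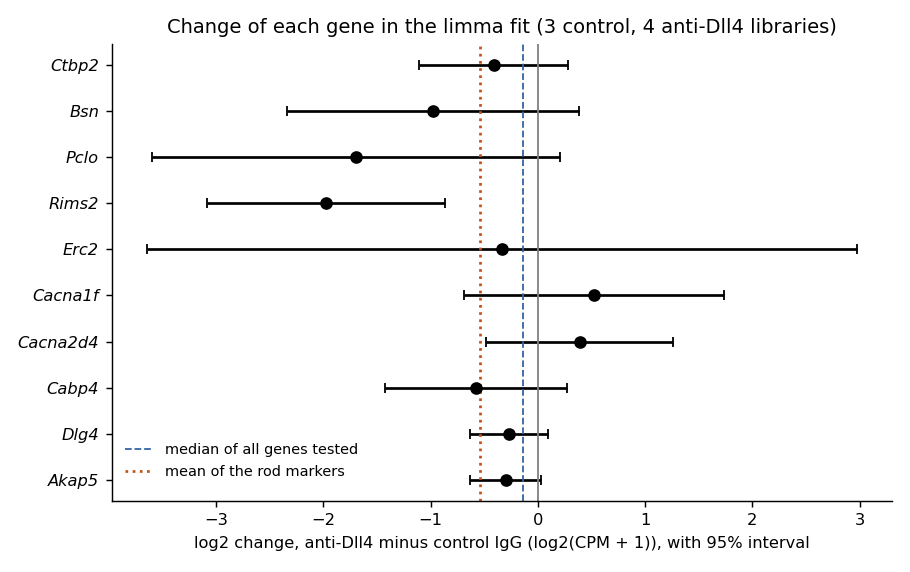
Log2 change of each gene (horizontal axis, anti-Dll4 minus control IgG on log2(CPM + 1)) with its 95% interval from limma. The dashed line is the median of all genes tested (-0.14) and the dotted line the mean of the rod markers (-0.54). The interval of Rims2 (-3.08 to -0.86) lies below 0, and the other 9 include 0.

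The channel genes showed another order. Cacna1f encodes the pore of Cav1.4, the calcium channel of photoreceptor terminals. It had 143, 86.3 and 102 CPM in controls, against 155, 211, 227 and 79.0 CPM in anti-Dll4 1 to 4. Anti-Dll4 1 to 3 were above all controls and anti-Dll4 4 below them, and the change was 0.53 ± 0.58 (SE, 95% interval -0.68 to 1.74). Cacna2d4 encodes the alpha2delta4 subunit, which helps to bring the channel to the synapse. It had 208, 232 and 257 CPM in controls, against 243, 253, 365 and 378 CPM in anti-Dll4 1 to 4. Its highest libraries were anti-Dll4 3 and 4, those in which Rims2 and Bsn were lowest. The change was 0.39 ± 0.42 (SE, 95% interval -0.49 to 1.26), and 0.10 without these 2 libraries.

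Cabp4, a calmodulin-like protein of photoreceptor terminals, shifts Cav1.4 opening to more negative voltages. It had 754, 684 and 448 CPM in controls, against 499.5, 721, 198 and 398 CPM in anti-Dll4 1 to 4. The groups overlapped and anti-Dll4 3 was lowest, with a change of -0.58 ± 0.41 (SE, 95% interval -1.43 to 0.27), and of -0.23 without that library. The mean change of the rod markers was -0.54 on the same scale, and Cabp4 equalled 1.96% ± 0.518 (SD, n = 3) of the summed rod marker CPM in control and 2.06% ± 0.734 (SD, n = 4) in anti-Dll4 libraries. Cacna2d4 equalled 0.722% ± 0.0696 (SD, n = 3) in controls and 1.58% ± 0.720 (SD, n = 4) after anti-Dll4, a scale on which the lower rod sum raises all genes. For Cacna1f the values were 0.343% ± 0.0911 and 0.840% ± 0.479, and anti-Dll4 4 lay within the control range.

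The scaffolds were among the most abundant of the 10 by reads. Dlg4 encodes PSD-95, a membrane-associated scaffold that marks photoreceptor terminals in the retina and the postsynaptic density elsewhere. It had 5270.3, 4794 and 4506 CPM in controls, against 3961, 3644, 4762 and 3796 CPM in anti-Dll4 1 to 4. Anti-Dll4 3 alone reached the control range, and the change was -0.27 ± 0.17 (SE, 95% interval -0.63 to 0.09). On the log2 scale, Dlg4 varied with an SD of 0.11 among controls and 0.17 after anti-Dll4. The median gene had 1.05 and 1.56. Of the 10 genes, Dlg4 included, 9 varied less than the median gene among controls and 8 after anti-Dll4. The median gene is taken over all levels, while Dlg4 had 5916 to 8931 reads. Genes with like numbers of reads were not compared, so a low SD is not shown to be particular to these genes.

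Akap5 encodes AKAP150, which anchors protein kinase A and calcineurin and binds PSD-95 and its relatives. It had the most reads of all genes in 6 libraries and had rank 3 in anti-Dll4 4, without a length correction. Its levels were 11254, 14608 and 19094 CPM in controls, against 10707, 13357, 10652 and 13115 CPM in anti-Dll4 1 to 4. Akap5 thus made up 1.07% to 1.91% of all CPM and 51.0% to 69.8% of the CPM of the 10 genes together. The groups overlapped, and the change was -0.30 ± 0.16 (SE, 95% interval -0.63 to 0.03), with -0.11 without control IgG 4, its highest library, and -0.49 without control IgG 1, its lowest control. Both scaffold changes turned to above 0 under scaling to rod markers, at 0.35 for Dlg4 and 0.32 for Akap5.

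**Figure D3:**
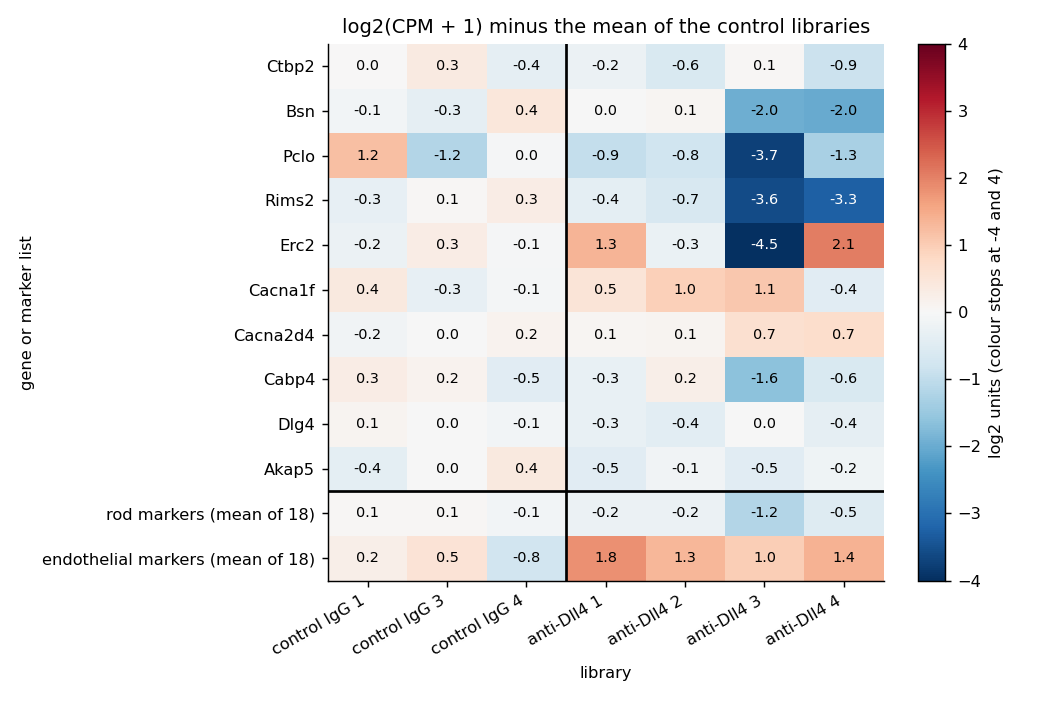
Log2(CPM + 1) of each gene, and the mean of the 18 rod and 18 endothelial markers, minus the mean of the control libraries, by library (columns, 3 control IgG and 4 anti-Dll4). Blue is below and red above the control mean; Rims2 stood at -3.58 and -3.25 in anti-Dll4 3 and 4, where the rod marker mean stood at -1.18 and -0.51.

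Set against rod RNA in the same library, the 10 genes again differed. The summed rod markers were at 85.3% and 73.4% of the control mean in anti-Dll4 1 and 2 and at 47.3% and 60.2% in anti-Dll4 3 and 4. Rims2 equalled 9.99%, 13.2% and 15.2% of the summed rod marker CPM in control, 11.3% and 10.9% in anti-Dll4 1 and 2, and 2.22% and 2.19% in anti-Dll4 3 and 4. Rims2 RNA was therefore lower than in proportion to rod marker RNA in those 2 libraries. Ctbp2 was not: it equalled 1.74% to 2.93% in controls and at least 2.03% in each anti-Dll4 library. Relative to the rod marker mean, 4 of the 10 genes (Bsn, Pclo, Rims2 and Cabp4) had lower and 6 higher changes. For Cabp4 the difference was only -0.04. The median change of all genes tested, -0.14, also lay above the rod marker mean change of -0.54, so a higher change is not particular to these genes. The summed endothelial markers were at 207%, 187%, 236% and 206% of the control mean in anti-Dll4 1 to 4. Of these 18 markers, 15 had a change above 0 and 3 below. The part of rod content, endothelial content, untagged carry-over or RNA quality in the values of single genes was not tested.

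The relatives of the 10 genes showed no common direction. Of 19 in the table, all tested, 0 passed in limma and in voom, beside 0.119% and 0.367% of all genes tested. An unadjusted p under 0.05 was seen for 1, Ctbp1, beside 7.09% of all genes tested. Changes were below 0 for 12 and above for 7 (median -0.50), beside 54.5% of all genes below 0. Ctbp1, a corepressor that is also found at ribbons, had 89.7, 285 and 106 CPM in controls, against 238, 166, 442 and 512 CPM in anti-Dll4 1 to 4, a change of 1.13 ± 0.54 (adjusted p = 0.695, limma). The MAGUK relatives of Dlg4 had changes of -0.50 (Dlg1), -0.61 (Dlg2), -0.70 (Dlg3) and 0.69 (Dlg5). Dlg2 and Dlg3, like Rims2, were lowest in anti-Dll4 3 and 4, at 82.1 and 121 CPM for Dlg2 and 22.7 and 86.4 CPM for Dlg3. Rims3 (group means of 15.7 and 3.98 CPM) and Erc1 (5.48 and 3.41 CPM, change -0.78) had few reads. Among CaBP genes, the values were -0.14 for Cabp1, -0.97 ± 1.79 (SE) for Cabp5, of bipolar cells, and -2.14 ± 1.11 for Cabp2. Cabp2 (adjusted p = 0.711, limma) had at most 19.5 CPM. Cabp5 had 37.8, 17.7 and 11.1 CPM in controls, against 93.1, 59.9, 0 and 1.13 CPM in anti-Dll4 1 to 4. Its anti-Dll4 libraries lay on both sides of the controls, so its change has no clear sign.

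Other calcium channel subunits in the table did not pass the test either. Among pore subunits the changes were 0.71 for Cacna1a, 0.03 for Cacna1b, -1.63 for Cacna1c, -1.62 for Cacna1d, -0.05 for Cacna1g and 0.32 for Cacna1h. Cacna1c (SE 1.83) was at 0 CPM in control IgG 4 and in anti-Dll4 2 and 3. Cacna1d, the Cav1.3 pore, was read at 0 to 149 CPM within the anti-Dll4 group alone. Among alpha2delta subunits they were 1.45 for Cacna2d1, -0.60 for Cacna2d2 and 0.01 for Cacna2d3. These values lay on both sides of 0.

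Of 35 tested genes of the vesicle release machinery, 0 passed in limma and in voom, beside 0.119% and 0.367% of all genes tested. With shares this small, 0 passing says little about a list of this size. At an unadjusted p under 0.05 there were 0, beside 7.09%. Changes were below 0 for 24 and above for 11 (median -0.29), beside 54.5% of all genes below 0. The smallest p belonged to Cacnb2, the beta subunit of the photoreceptor channel, at 179, 234 and 207 CPM in controls, against 140, 168, 83.8 and 4.52 CPM in anti-Dll4 1 to 4. Every anti-Dll4 library was below every control library, as for 3.75% of all genes tested. The change was -1.84 ± 0.91 (SE, adjusted p = 0.706, limma). Napb, which helps to recycle SNARE proteins, lay above the controls in every anti-Dll4 library, as did 3.84% of all genes tested. Its change was 0.96 ± 0.48 (adjusted p = 0.706, limma). Synj1, a lipid phosphatase of vesicle retrieval, had a change of 1.02 ± 0.53 (adjusted p = 0.711, limma).

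Across the cleft, 0 of 17 tested genes of bipolar dendrites and the synaptic cleft passed in limma and in voom, beside 0.119% and 0.367% of all genes tested. At an unadjusted p under 0.05 there were 0, beside 7.09%. Changes were below 0 for 10 and above for 7 (median -0.10), beside 54.5% of all genes below 0. Gpr179, which holds regulators of G protein signalling at ON bipolar dendrites, was at 177, 174 and 115 CPM in controls, against 96.4, 36.7, 71.9 and 53.1 CPM in anti-Dll4 1 to 4. Its groups did not overlap, and the change was -1.31 ± 0.67 (adjusted p = 0.707, limma). In this list 2 genes lay lower without overlap and 0 higher, beside 3.75% and 3.84% of all genes tested. Trpm1, the channel that ON bipolar cells open in light, had a change of -0.60 ± 0.34 (adjusted p = 0.742, limma) and Gnb3, a G protein beta subunit of cones and ON bipolar cells, of 0.96 ± 0.51 (adjusted p = 0.713, limma).

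Of 18 other scaffolds tested, 0 passed in limma and in voom, beside 0.119% and 0.367% of all genes tested. At an unadjusted p under 0.05 there were 0, beside 7.09%. Changes were below 0 for 11 and above for 7 (median -0.30), beside 54.5% of all genes below 0. Dlgap1, a binding partner of PSD-95, had 60.8, 95.1 and 85.4 CPM in controls, against 83.7, 0, 0 and 51.9 CPM in anti-Dll4 1 to 4 (change -3.29 ± 1.64, adjusted p = 0.706, limma). Lin7c and Mpp6, partners of MAGUK proteins, had changes of 2.09 (adjusted p = 0.711) and -2.07 (adjusted p = 0.770, limma). Among 20 tested AKAPs and the enzymes they bind, 0 passed in limma and in voom, beside 0.119% and 0.367% of all genes tested. An unadjusted p under 0.05 was seen for 2, Akap8 and Akap6, beside 7.09% of all genes tested. Changes were below 0 for 12 and above for 8 (median -0.20), beside 54.5% of all genes below 0. Akap8, a nuclear anchoring protein, had no overlap between groups (309.8, 279 and 231 CPM in controls against 119, 74.6, 135 and 168 CPM). Its change was -1.18 ± 0.51 (adjusted p = 0.690, limma). In this list 1 gene lay lower without overlap and 1 higher, beside 3.75% and 3.84% of all genes tested. The change was -3.84 ± 1.73 (adjusted p = 0.695, limma) for Akap6, an anchor at the nuclear envelope, and for Prkaca, a catalytic subunit of protein kinase A, 0.89 ± 0.51 (adjusted p = 0.737, limma).

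**Figure D4:**
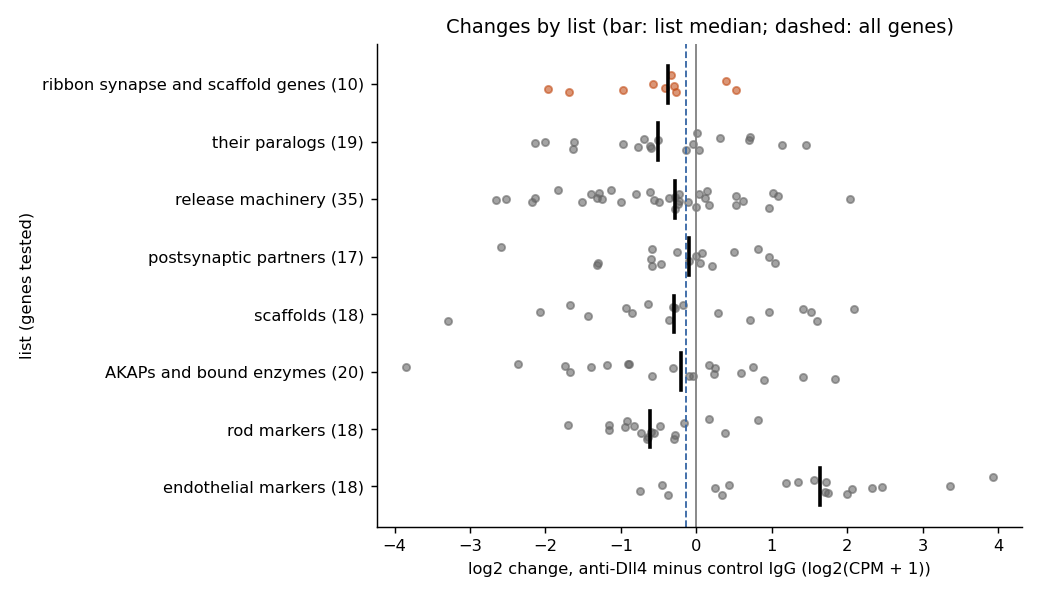
Log2 changes (horizontal axis, anti-Dll4 minus control IgG on log2(CPM + 1)) of the tested genes in each list (rows, with the number tested). Each point is 1 gene, the bar is the list median and the dashed line the median of all genes tested. Medians of the synaptic lists lie between -0.50 and -0.10, beside -0.62 for rod and 1.63 for endothelial markers.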

How the data were processed

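RNA was pulled down with anti-HA beads, made into QuantSeq 3' libraries and sequenced as single reads, per the labels' protocols. The submitters' processing notes name cutadapt, TopHat2, bedtools and hg19, a human build, although the table's symbols are mouse symbols. The annotation, the counting rule and the use of strand were not found in those notes or the labels. The deposited table holds log10 values, log10(CPM + 1) by the authors. Turned back, 100% of CPM values were whole multiples of 1 read (tolerance 0.001).

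Fits used log2(CPM + 1) of the genes that reached 1 CPM in 3 or more libraries, with limma 3.58.1 in R 4.3.3 (treatment as the only term, mean-variance trend, two-sided, Benjamini-Hochberg over 10899 genes). The size of its estimates was checked on simulated independent normal values, a simpler setting than these libraries. Adjusted p-values are over all genes tested.

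The genes and lists were chosen with earlier results of these data known. The text names all 10 genes, their relatives in the table, and from each other synaptic list members past the threshold or, failing that, the 3 with the smallest p. Relatives not in the table (Rims1, Rims4, Cabp7, Cacna1e) were not analysed here. Alternatives were other pseudocounts, filters, scalings, voom, no trend, a replicate block and leaving out libraries. Promoter windows come from RefSeq (GRCm38.p6) and transcript models from GENCODE M21, matched by symbol.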

Additional observations from a re-analysis of the deposited data

Results flagged for a closer look

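Pclo in anti-Dll4 3 stood apart from the other anti-Dll4 libraries, at 7.93 CPM (14 reads) against 46.9 to 66.1 CPM. Its gap to the nearest library was 0.833 of the range on the log2(CPM + 1) scale, just past Dixon's 95% critical value for 4 libraries. Of 11 sets of 4 libraries examined (the 10 genes and the summed rod markers), 1 passed, and chance flags about 1 in 20.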

How the results depend on the processing

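The median change of the 10 genes moved from -0.37 to 0.14 with libraries scaled to the summed rod markers, which left 3 genes below 0 and moved the median of all genes from -0.14 to 0.39. It was -0.16 without anti-Dll4 3 and 4, chosen after seeing the data. The count of all genes past the threshold, 13, was 59 with rod scaling, 40 with voom (16 higher, 24 lower), 0 without the mean-variance trend (692 at an unadjusted p under 0.05) and 5 without anti-Dll4 3 and 4. With a library left out it ran from 3 (without control IgG 1 or anti-Dll4 4) through 6 (without anti-Dll4 1 or 2) to 22 (without control IgG 3). The cause was not tested. A replicate block on the title numbers compares only libraries 3 and 4 of both groups. It gave 3 genes, a median of -0.74 for the 10 genes, and 1 of them past the threshold, Rims2 (-3.59). The anti-Dll4 libraries in that comparison, 3 and 4, are those in which Rims2 was lowest. Voom also gave 1, on the same libraries and others, so these calls are not independent. Same-numbered libraries shared deviations weakly (r = 0.05 and 0.07 across genes). Libraries of different numbers were not compared in this way, so whether same-numbered libraries were paired cannot be told from these values. Over the 15 alternatives that can move a gene's change, Rims2, Pclo, Cacna1f and Cacna2d4 kept their sign in 15, Bsn, Cabp4, Ctbp2, Dlg4 and Akap5 in 14 and Erc2 in 10. Low reads limit Erc2 and Pclo most.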

Other observations

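Other genes of the release machinery and scaffold lists, named here after their values were seen, are examples and not a count. Unc13a and Sv2a were near 0 in anti-Dll4 3 but not in anti-Dll4 4. Unc13a, a vesicle priming factor, had 178, 145 and 61.3 CPM in controls and then 208, 218, 0.566 and 167 CPM. Sv2a, a vesicle protein, had 110.4, 163 and 216 CPM and then 76.3, 126, 0 and 150.2 CPM, and Cacnb2 was lowest in anti-Dll4 4. Some genes with few reads were low in both anti-Dll4 3 and 4. Ppfia2 had 0 and 0 CPM (control mean 20.3), and Cplx2 had 0 and 2.26 CPM (control mean 34.9). The following 4 were not as low in those libraries, relative to their control means, as Rims2, which stood at 8.18% and 10.3%. Slc17a7, the glutamate transporter of photoreceptor vesicles, had 660, 503 and 590.4 CPM in controls, against 600.0, 509, 334 and 586 CPM in anti-Dll4 1 to 4. Unc119, a lipid-binding protein abundant in photoreceptors, had 1244, 1039.7 and 1109.8 CPM and then 1399.5, 1292, 1273 and 966 CPM. Mpp4, a MAGUK of photoreceptor terminals that binds PSD-95, had 439, 394 and 582 CPM and then 587, 552, 497 and 660.0 CPM, its highest value being in anti-Dll4 4. Cplx4, a complexin of ribbon synapses, had 281, 293 and 309.5 CPM and then 196, 457, 306 and 268 CPM.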
